A study of Mus musculus with 30 samples.

Results

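Transcripts of immunoglobulin variable segments were followed on 30 Affymetrix Mouse Gene ST 1.0 microarrays covering a mouse B-cell lymphoma line and sublines selected for drug resistance. The segments were taken as every gene with a probe set of a single annotated symbol that begins with Igkv, Igkj, Ighv, Ighd followed by a digit, Ighj, Iglv or Iglj. This rule found 8 genes, carried by 9 probe sets, among the 19937 genes with a symbol of their own. All 8 were kappa variable segments, so heavy-chain, lambda and joining segments had no member of their own. The parental line carried the Eµ-Myc transgene, in which an immunoglobulin heavy-chain enhancer drives Myc in B-lineage cells, and lacked Cdkn2a. It came from a lymphoma of a C57BL/6J mouse and was grown on irradiated Cdkn2a-/- embryonic fibroblasts, and all arrays share this genotype and feeder layer. Parental cells were sampled after 0, 6, 12, 24 and 48 h in 750 nM mafosfamide, which releases in vitro the alkylating metabolite of cyclophosphamide (n = 5, 4, 4, 5 and 5 arrays). The resistant lines R100, R500, R1000 and R4000 were steps of 1 dose escalation to 100, 500, 1000 and 4000 nM of the drug. An untreated array was made of each line, and 1 further array of R500, R1000 and R4000 after 24 h at 750 nM (called treated), so these lines have no replicates.

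A kappa light chain is built when the RAG recombinase joins a variable segment of the Igk locus to a joining segment, and the joined exon is then transcribed together with the constant exon. A B cell usually keeps a single productive light chain, so the variable segment that a cell population transcribes in quantity is commonly read as a mark of its clone. Variable segments that have not been joined can also be transcribed at lower levels, and many segments are close in sequence, so that a probe set may pick up transcripts of a relative. The arrays hold bulk RNA, in which fewer cells with a given segment and less RNA of it per cell cannot be told apart.

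The sample descriptions number the parental arrays from 1 to 5. Numbers 2 to 5 were present at each of the 5 times, and number 1 only at 0, 24 and 48 h. The labels call the arrays biological replicates and do not say what a number stands for. Arrays of 1 number may share a starting culture, in which case the p-values between numbers measure only the spread between arrays of those cultures. Values below are deposited log2 expression, differences are on the log2 scale, and errors of single groups are SD. The array of number 5 at 0 h stood apart in its spread, its interquartile range being 2.97 where all others had 3.36 to 3.75. B-cell markers were present, as 12 of 13 measured lay on every array above 7.49, the 99th percentile of the means of 1224 olfactory, vomeronasal and taste receptor genes. The same held for 1 of 16 T and NK cell markers, 3 of 15 myeloid markers and 15 of 30 fibroblast markers.

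In the order of the kappa locus on chromosome 6 (assembly GRCm38.p6), the 8 segments took positions 20 (Igkv9-120), 48 (Igkv10-96), 54 (Igkv19-93), 56 (Igkv4-91), 105 (Igkv4-55), 117 (Igkv5-43), 131 (Igkv8-30) and 142 (Igkv6-20) of 162. In parental cells at 0 h the means of 5 segments exceeded 7.49: Igkv19-93, Igkv4-91, Igkv10-96, Igkv5-43 and Igkv4-55. By the same limit, 1 of 9 T-cell receptor variable segments, Trbv1, was above it. Igkv19-93 (probe set 10545177) was at the top of the scale on every array, from 13.72 to 14.19 in parental cells and from 13.97 to 14.12 in the resistant lines. Its SD over the 23 parental arrays was 0.14, which ranked 12859 among 19937 genes. So near the top of the scale an array compresses differences, and a small spread does not show that the transcript was constant. Igkv5-43 (SD 1.51) and Igkv4-91 (SD 1.38) instead took ranks 3 and 4 of all genes by SD, and Igkv4-55 (SD 0.85) ranked 68. Levels of different segments are not compared with each other, since probe sets differ in affinity.

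**Figure D1:**
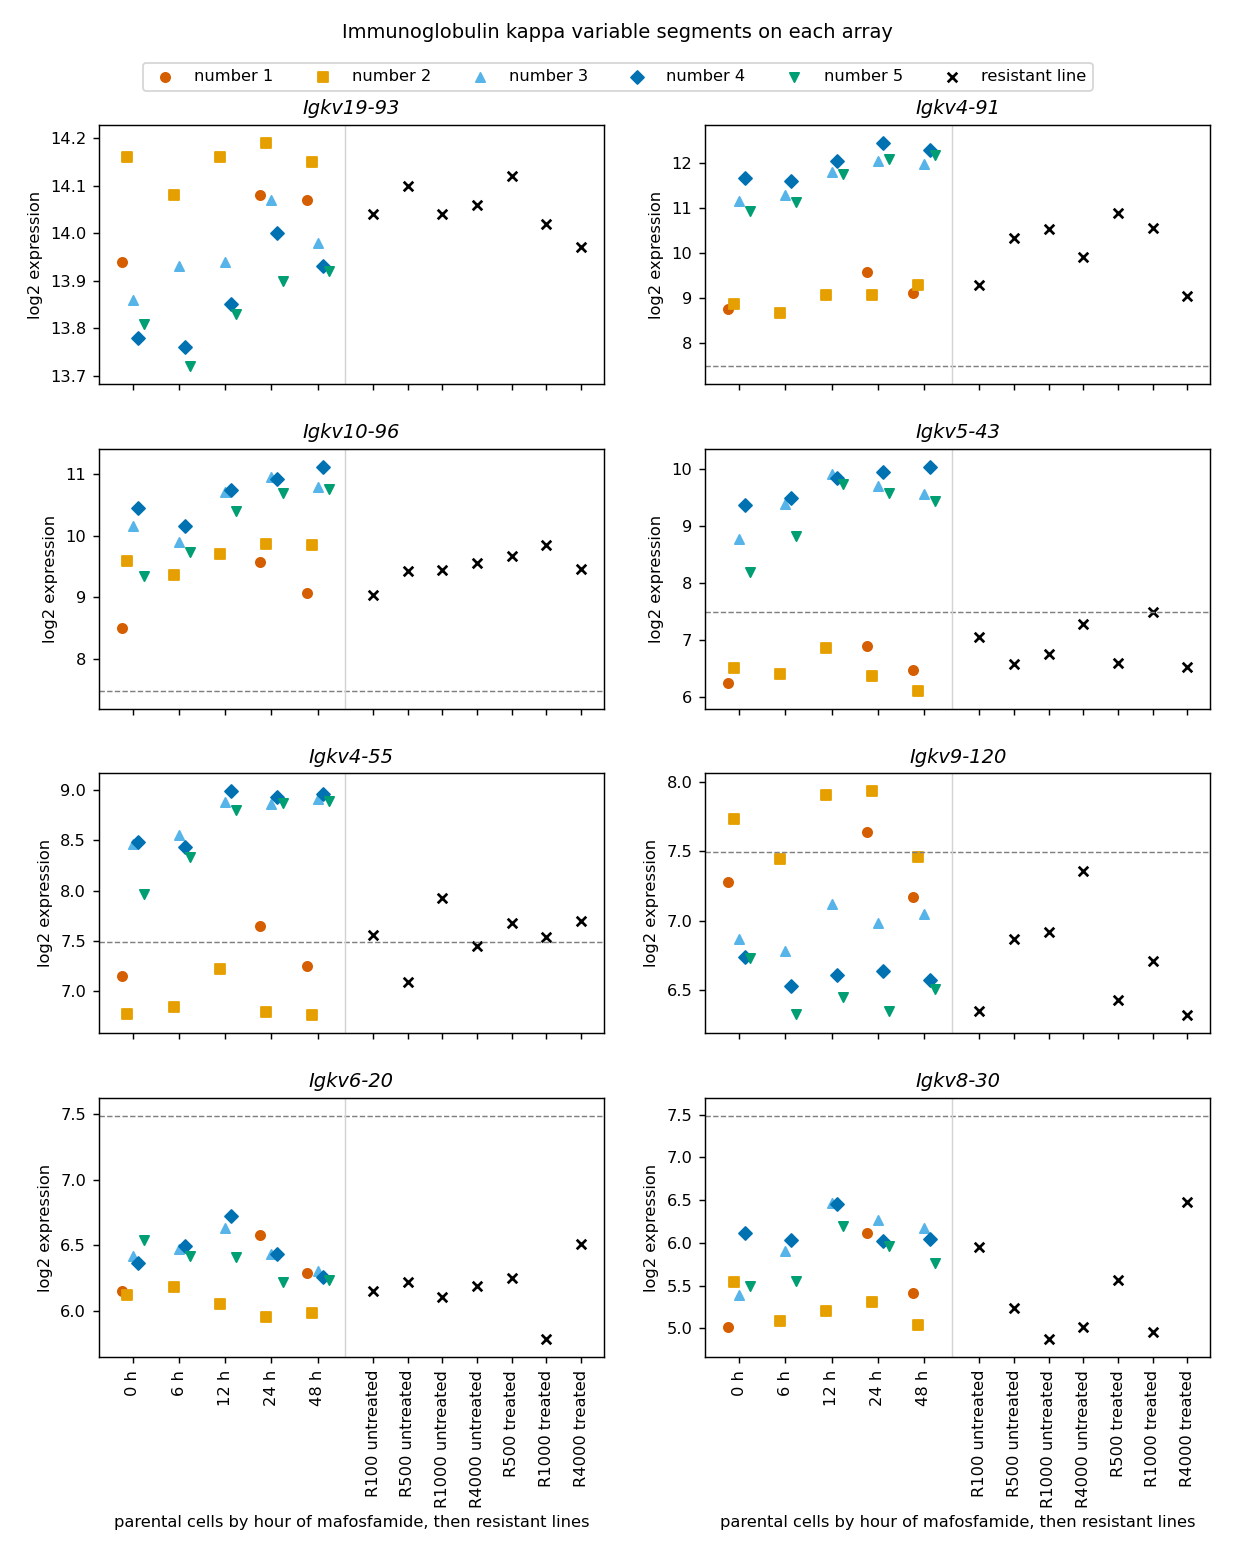
Log2 expression (vertical axis) of the 8 kappa variable segments on all 30 arrays, by hour of mafosfamide for parental cells and by line for resistant cells (horizontal axis). Colours and shapes mark the description number of parental arrays, crosses are single resistant arrays, and the dashed line is the limit of 7.49, left out for Igkv19-93, which lay far above it. In Igkv4-91, Igkv5-43 and Igkv4-55 the arrays of numbers 3, 4 and 5 lay above those of numbers 1 and 2 at each time.

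The first question was whether parental arrays of different description number carried the same levels of the segments. With the hour held fixed, the number as a factor was called for 8 of 8 segments, against 32.2% of all genes (limma moderated F test, Benjamini-Hochberg adjusted p under 0.05). Igkv4-91 had the smallest p of all 19937 genes (adjusted p = 8.77e-13), Igkv5-43 ranked 3 (adjusted p = 1.85e-10) and Igkv4-55 ranked 10 (adjusted p = 6e-10). The number accounted for 98.8%, 97.4% and 96.9% of the variance left after the hour in these 3 segments, against a median of 43.3% over all genes. Among the T-cell receptor variable segments, 2 of 9 were called (Trav13-5 and Trbv1).

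Igkv4-91 showed the difference on every array. At number 1 it stood at 8.76, 9.58 and 9.12 at 0, 24 and 48 h. At number 2 it stood at 8.87, 8.66, 9.06, 9.06 and 9.30 in order of hour. At number 3 the values were 11.14, 11.29, 11.80, 12.04 and 11.96. None of the arrays of numbers 1 and 2 reached the lowest array of number 3. Number 4 gave 11.65, 11.59, 12.04, 12.44 and 12.28, and number 5 gave 10.92, 11.13, 11.75, 12.09 and 12.16. All arrays of numbers 3, 4 and 5 therefore lay above all arrays of numbers 1 and 2, at every hour. Between numbers 2 and 4 the fitted difference was 3.01 ± 0.11 (SE; adjusted p = 2.13e-12 by limma), and between numbers 1 and 2 it was -0.07 ± 0.13 (adjusted p = 0.781).

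Igkv5-43, whose segment lies farther along the locus, showed the same order of numbers. It stood at 6.24, 6.90 and 6.47 at number 1 and at 6.51, 6.40, 6.86, 6.37 and 6.11 at number 2, all below the limit of 7.49. At number 3 it stood at 8.77, 9.39, 9.92, 9.70 and 9.57, at number 4 at 9.37, 9.49, 9.85, 9.95 and 10.04, and at number 5 at 8.20, 8.82, 9.75, 9.58 and 9.44. The segment was thus above the limit on each array of numbers 3, 4 and 5 and on no array of numbers 1 and 2. From number 2 to number 4 the fitted difference of the deposited values was 3.29 ± 0.17 (SE; limma adjusted p = 3.31e-10). Since the segment was not above the limit at number 2, the transcript may differ by more than this.

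Igkv4-55 divided the arrays in the same way. Its values were 7.15, 7.65 and 7.25 at number 1, and 6.77, 6.84, 7.22, 6.79 and 6.76 at number 2. Numbers 3, 4 and 5 ranged from 8.46 to 8.91, from 8.43 to 8.99 and from 7.97 to 8.89. Number 2 was also called lower than number 1 (-0.49 ± 0.13, SE; limma adjusted p = 0.0163), but the means of both lay below the limit of 7.49, where the size of a difference cannot be read as that of the transcript. From number 2 to number 4 the fitted difference was 1.88 ± 0.11 (SE; adjusted p = 1.34e-09), again from a level below the limit.

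Igkv10-96 was lowest at number 1, and number 2 was called higher than number 1 (0.74 ± 0.15, SE; limma adjusted p = 0.00368), unlike in Igkv4-91, Igkv5-43 and Igkv4-55. It ranged from 8.51 to 9.57 at number 1, from 9.36 to 9.87 at number 2, from 9.90 to 10.95 at number 3, from 10.15 to 11.11 at number 4 and from 9.34 to 10.76 at number 5. Numbers 2 and 5 overlapped, through the 0 h and 6 h arrays of number 5 at 9.34 and 9.73. Number 1 lay below the mean of the other numbers by 1.33 (difference -1.33 ± 0.13, SE; limma adjusted p = 3.68e-06), and number 4 above the others by 0.85 ± 0.10 (adjusted p = 6.24e-05).

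Igkv9-120 ran the other way. Igkv19-93 did so at number 2 only, since number 1 was not called against the others (0.05). Igkv9-120 ranged from 7.17 to 7.64 at number 1 and from 7.44 to 7.93 at number 2. It ranged from 6.78 to 7.12 at number 3, from 6.53 to 6.74 at number 4 and from 6.33 to 6.73 at number 5, so that no array of these numbers reached number 1 or 2. The difference of number 2 from the mean of the others was 0.85 ± 0.07 (SE; limma adjusted p = 3.01e-07), although its mean passed 7.49 only at number 2. Igkv19-93 was highest at number 2, at 14.15 ± 0.04 (n = 5), and lowest at number 5, at 13.84 ± 0.08 (n = 5). Number 2 exceeded the mean of the others in it by 0.23 ± 0.03 (SE; adjusted p = 7.12e-05). The second probe set of Igkv19-93 (10545182), which ranged from 8.34 to 9.37 in parental cells, did not follow the first. It was called lower at number 1 (-0.38, limma adjusted p = 0.0178) and higher at number 3 (0.36, adjusted p = 0.0165). Set against number 2, it was higher at number 3 (0.47, adjusted p = 0.00318) and at number 4 (0.33, adjusted p = 0.0287). At number 5 it was not called against number 2 (0.23, adjusted p = 0.117).

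The remaining segments, Igkv6-20 and Igkv8-30, lay below 7.49 on every array, so that their differences are those of values not above the limit. Igkv6-20 ranged from 5.95 to 6.72 in parental cells and was lower at number 2 by 0.36 (difference -0.36 ± 0.06, SE; limma adjusted p = 0.000458). Igkv8-30 ranged from 5.01 to 6.47, was called lower at number 2 (-0.64 ± 0.13, adjusted p = 0.00116) and higher at number 4 (0.48 ± 0.13, adjusted p = 0.0384).

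**Figure D2:**
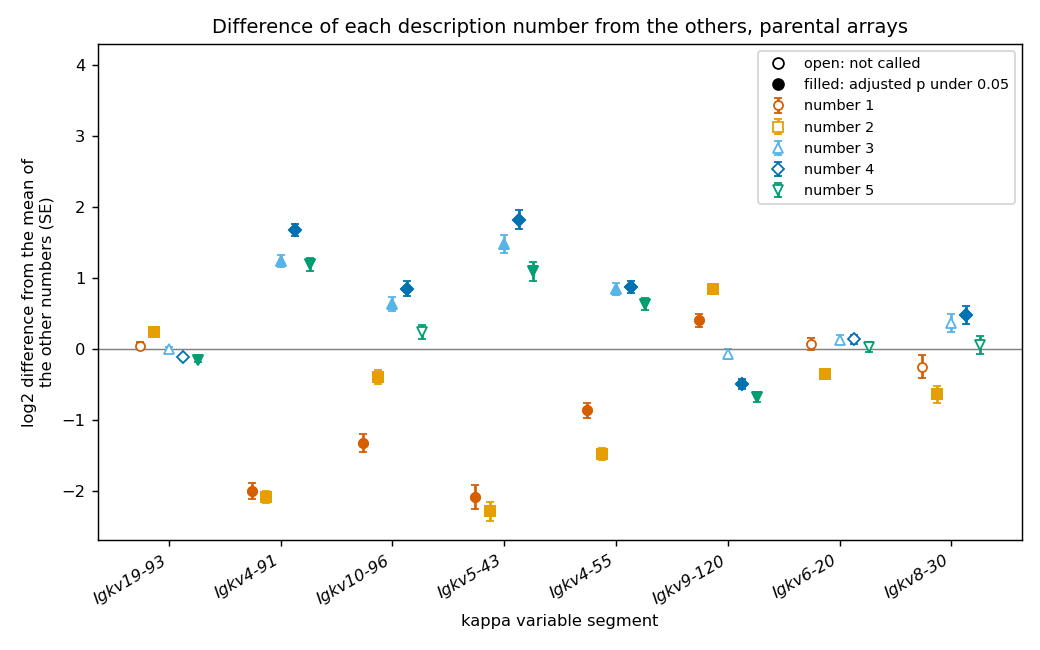
Difference on the log2 scale of each description number from the mean of the other 4 (vertical axis, with SE) for the 8 segments (horizontal axis), fitted with the hour over 23 parental arrays. Filled symbols are called and open symbols are not. Numbers 1 and 2 lie farthest below 0 for Igkv5-43 (-2.10 and -2.29), and above 0 for Igkv9-120 (0.40 and 0.85).

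Counted against the mean of the other numbers, 5 segments were called at number 1 (14.3% of all genes in that comparison), with 1 higher (9.35% of genes) and 4 lower (4.97%). At number 2 all 8 were called (19.1% of genes), with 2 higher (8.7%) and 6 lower (10.4%). At number 3 the 4 called were all higher (3.67% of genes in either direction, 1.95% higher and 1.72% lower). At number 4 there were 6 (3.95% of genes), with 5 higher (2.55%) and 1 lower (1.39%), and at number 5 there were 5 (18.8% of genes), with 3 higher (7.62%) and 2 lower (11.2%). Taken in pairs, number 2 differed from numbers 3, 4 and 5 in all 8 segments each time, where 16.2%, 18.1% and 20.3% of genes were called. Number 1 differed from numbers 3, 4 and 5 in 5, 5 and 6 segments (12.4%, 9.81% and 22.8% of genes), and from number 2 in 4 (11.1%). Without the 24 h array of number 2, the last count was 1. Between numbers 3 and 4 no segment was called (limma; 0.176% of genes). The smallest adjusted p there was that of Igkv9-120 (-0.34 ± 0.09, SE, adjusted p = 0.178), followed by Igkv4-91 (0.35 ± 0.11, adjusted p = 0.259). Between numbers 3 and 5 the single call was Igkv9-120 (1.13% of genes), lost without the 12 h or 48 h array of number 3 or the 12 h array of number 5. Between numbers 4 and 5 it was Igkv10-96 (3.2% of genes), where the count was 0 without any 1 of 11 arrays, the 0 h array of number 5 among them, and 3 without the 0 h array of number 2 or the 24 h array of number 5.

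**Figure D3:**
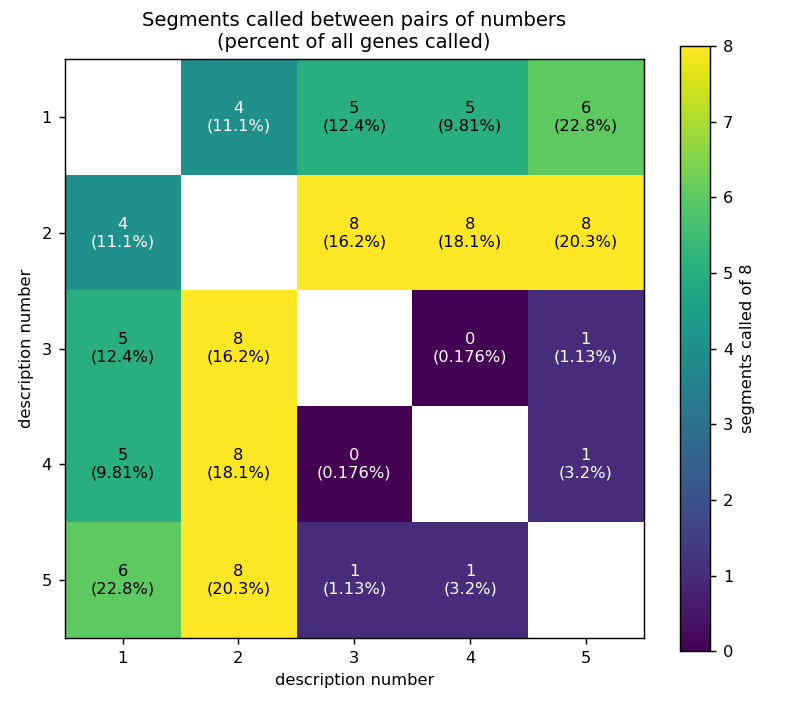
Segments called of 8 between each pair of description numbers (both axes) in the parental arrays, with the percentage of all genes called in brackets. Counts of 5 to 8 stand between numbers 1 or 2 and numbers 3, 4 or 5, and counts of 0 or 1 among numbers 3, 4 and 5.

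Genes that build or accompany the receptor were read from lists. Of 13 measured V(D)J recombination genes, 8 were called by number, beside 32.2% of all genes. Rag1, a subunit of the recombinase, had the smallest p among them and ranked 29 of all genes (adjusted p = 8.48e-09). It stood at 8.80 ± 0.70 (n = 3) at number 1, 8.54 ± 0.59 at number 2, 9.78 ± 0.43 at number 3, 10.18 ± 0.49 at number 4 (n = 5 each), and between 9.20 and 10.46 on the arrays of number 5. Its means were lowest at the numbers with the lowest Igkv4-91, and the arrays overlapped, since those of number 3 began at 9.13, below the highest array of number 1. Rag2, the partner subunit, was called too (adjusted p = 0.00135), as were Xrcc6 and Xrcc5, which encode the Ku proteins of end joining (adjusted p = 6.1e-06 and 8.77e-06). Dntt, the polymerase that adds bases at the joints, was not called and lay at 5.81 ± 0.13 over the 23 parental arrays, below the limit. The low mean of Rag1 at number 1 was not that of the list as a whole. Against the mean of the other numbers, 2 of the 13 genes were called higher at number 1 (9.35% of all genes) and 1 lower (4.97%). At number 2, 1 was higher (8.7%) and 6 lower (10.4%).

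Of 11 B-cell receptor partners measured, 6 were called by number (32.2% of all genes), led by the surrogate light chain genes Vpreb1 (adjusted p = 0.00392) and Igll1 (adjusted p = 0.00478) and the complement receptor gene Cr2 (adjusted p = 0.00522). Cd79a, a signalling subunit, was called (adjusted p = 0.0227) but its group means stayed between 13.28 and 13.51 over the 5 numbers. Its partner Cd79b stood at 13.57 ± 0.09 and Pax5, a transcription factor of B-cell identity, at 11.79 ± 0.12 over the 23 parental arrays. Of 4 genes on the immunoglobulin constant list, 1 was called, a share no larger than that of all genes, and it was Ighm (adjusted p = 0.000158). Ighm, the constant gene of IgM, stood at 7.08 ± 0.15 over the parental arrays, below the limit of 7.49, and at 6.80 ± 0.07 (n = 3) at number 1. The constant kappa gene Igkc is not among the genes with a symbol of their own, so the light chain as a whole was not followed here.

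Cell type markers were set beside the same 32.2% of all genes called by number. Of 13 B-cell markers, 8 were called. At number 1, 2 were higher (9.35% of all genes) and 2 lower (4.97%). At number 2, 4 were higher (8.7%) and 1 lower (10.4%). Ms4a1, which encodes the B-cell surface protein CD20, had the smallest p by number. It was higher at number 1 by 1.81 and at number 2 by 3.03 than the mean of the other numbers (limma adjusted p = 0.00165 and 3.18e-07), and lower at number 5 (-2.31, adjusted p = 2.76e-05). Of 30 fibroblast markers, 20 were called by number, with 11 higher at number 1 (9.35% of all genes) and 13 lower at number 3 (1.72%). Of 16 T and NK cell markers and 15 myeloid markers, 4 and 5 were called, shares near that of all genes. The mean of the fibroblast markers was 9.04 ± 0.86 (n = 3) at number 1, 8.70 ± 0.63 at number 2, 8.09 ± 0.16 at number 3, 8.65 ± 0.33 at number 4 and 8.46 ± 0.33 at number 5 (n = 5 each). With that mean as a covariate, all 8 segments remained called by number (37.1% of genes).

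Probe sets annotated to several variable segments give no single gene, and are described by probe set. Of 16 such probe sets that hold a symbol of the kinds chosen, 9 of 10 for kappa, 2 of 2 for lambda and 2 of 4 for heavy-chain segments were called by number, beside 33.5% of the 22961 annotated probe sets. The kappa probe set 10538921, annotated to 4 segments, had the smallest p of the kappa probe sets (adjusted p = 9.3e-15). It stood at 8.15 ± 0.30 (n = 3) at number 1, 8.57 ± 0.18 at number 2, 11.43 ± 0.22 at number 3, 11.60 ± 0.20 at number 4 and 11.36 ± 0.29 at number 5 (n = 5 each), and at 7.63 ± 0.28 (n = 7) on the resistant arrays. Probe set 10545175, annotated to 2 segments, instead had means from 10.56 to 10.91 over the 5 numbers. Against the mean of the other numbers, 8, 8, 6, 7 and 5 of the 10 kappa probe sets were called at numbers 1 to 5 (14.4%, 19.6%, 3.52%, 4.41% and 19.8% of annotated probe sets).

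**Figure D4:**
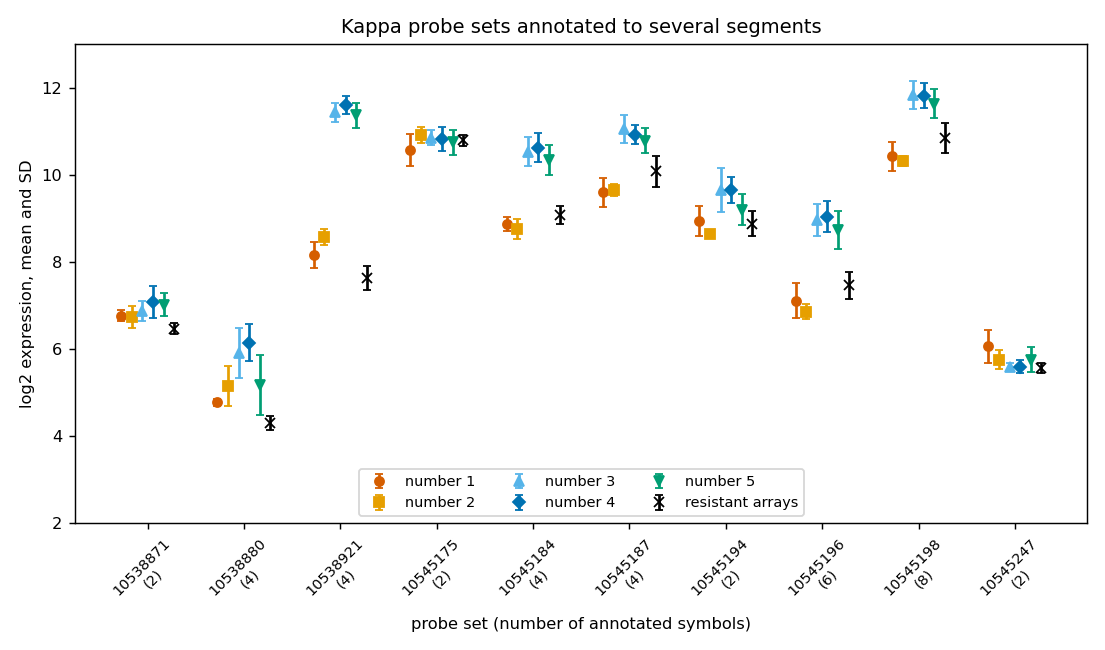
Mean log2 expression with SD (vertical axis) of 10 kappa probe sets annotated to several segments (horizontal axis, with the number of symbols), by description number of the parental arrays (n = 3 for number 1, n = 5 for the others) and over the 7 resistant arrays. In 10538921 numbers 3, 4 and 5 lie at 11.36 to 11.60 and numbers 1 and 2 at 8.15 and 8.57.

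The second question was whether mafosfamide changed the segments in parental cells. With the hour alone in the fit, no segment was called at 6, 12, 24 or 48 h against 0 h. In these comparisons 0.0201%, 0.512%, 6.78% and 0.251% of genes were called (limma). At an unadjusted p under 0.05 the counts of segments were 0, 0, 1 and 0, the one at 24 h being Igkv10-96. The shares of all genes at that limit were 5.13%, 11.9%, 29.4% and 11.7%. The 1 of 8 at 24 h was thus no larger a share than that of all genes. The median difference of the 8 segments was 0.16, 0.64, 0.44 and 0.29 at the 4 times, beside -0.01, -0.03, -0.04 and -0.02 over all genes. At 24 h Igkv10-96 stood at 10.40 ± 0.64 against 9.61 ± 0.76 at 0 h (n = 5 each; difference 0.79 ± 0.38, SE, adjusted p = 0.165), and Igkv4-91 at 11.04 ± 1.59 against 10.27 ± 1.35 (difference 0.77 ± 0.84, SE, adjusted p = 0.541). The SD within an hour held the differences between numbers described above, so this fit could miss a change that the numbers shared. With the number entered as a block, 0, 4, 5 and 3 segments were called, all higher, at 6, 12, 24 and 48 h. The shares of all genes were then 0.311%, 3.55%, 23.6% and 3.28%. With the number as a random block the counts were 0, 0, 1 and 0 (0.251%, 2.24%, 22.1% and 1.9% of genes). The labels do not say that a number pairs arrays, so each of these fits is given.

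Each later parental array was also set against the 0 h array of its own number, as a description. Igkv10-96 was higher at 12 h in 4 of 4 numbers, at 24 h in 5 of 5 and at 48 h in 5 of 5, with medians of 0.41, 0.78 and 0.63. Igkv4-91 was higher in 4 of 4, 5 of 5 and 5 of 5 numbers, with medians of 0.53, 0.82 and 0.63. Both were the segments among the 1000 probe sets of highest covariance with time order (ranks 224 and 328 of 34760). Igkv4-55 was higher in 4 of 4, 5 of 5 and 4 of 5 numbers, and Igkv5-43 in 4 of 4, 4 of 5 and 4 of 5. At 6 h the segments went both ways, with Igkv10-96 lower in 3 of 4 numbers. The largest differences from the 0 h array in these 4 segments at 12, 24 and 48 h were those of number 5, whose 0 h array was the one that stood apart in spread. Of the kappa probe sets with several symbols, 0, 0, 1 and 0 were called at 6, 12, 24 and 48 h (0.0348%, 0.479%, 5.26% and 0.231% of annotated probe sets). The one at 24 h was 10545175, at 11.00 ± 0.08 against 10.62 ± 0.28 at 0 h (n = 5 each).

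**Figure D5:**
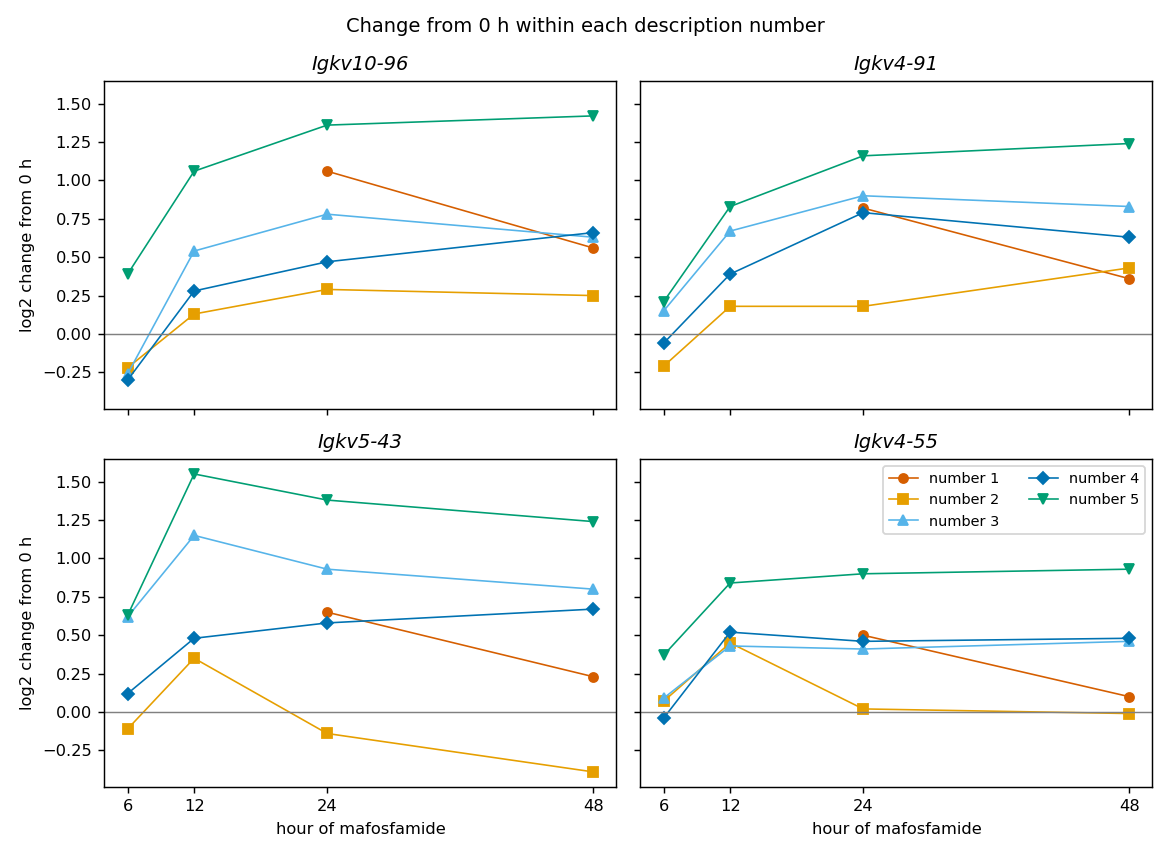
Change of log2 expression from the 0 h array of the same description number (vertical axis) at 6, 12, 24 and 48 h of mafosfamide (horizontal axis) for 4 segments, 1 line per number. Igkv10-96 and Igkv4-91 lie above 0 in every number from 12 h on, while Igkv5-43 lies below 0 in number 2 at 24 and 48 h.

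The mean of the fibroblast markers was 8.28 ± 0.24 at 0 h and 9.17 ± 0.58 at 24 h (n = 5 each). At 24 h 15 of 30 markers were called higher, where 6.78% of all genes were called in either direction. With the fibroblast mean as a covariate, no segment was called at 6, 12, 24 or 48 h, as without it. The shares of all genes were 0.0502%, 0.933%, 2.45% and 0.667%, so low that a count of 0 among 8 segments says little.

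The third question was whether the resistant lines carried the segments of the parental line. Without drug, no segment was called between the 4 resistant lines and parental cells at 0 h (limma, 0.0752% of genes called). That share is so low that a count of 0 among 8 segments says little. At an unadjusted p under 0.05 there were 0 segments and 7.1% of genes. The lines are steps of 1 dose escalation, so these p-values do not measure the spread between independent selections. The median difference of the segments was -0.24 beside -0.01 over all genes. Igkv19-93 stood at 14.04, 14.10, 14.04 and 14.06 in untreated R100, R500, R1000 and R4000. Igkv4-91 stood at 9.30, 10.32, 10.52 and 9.90, and Igkv5-43 at 7.05, 6.57, 6.75 and 7.29. Untreated R500, R1000 and R4000 thus held Igkv4-91 above the parental arrays of numbers 1 and 2, which reached 9.58. They held it below those of numbers 3, 4 and 5, which began at 10.92. Treated R500 (10.88) and R1000 (10.55) also lay between, but treated R4000 (9.04) lay within the range of numbers 1 and 2. Igkv5-43 in all 4 untreated lines lay below the limit of 7.49 and below every array of numbers 3, 4 and 5, which began at 8.20. R500 and R1000 lay within the range of numbers 1 and 2 in it, which reached 6.90, and R100 and R4000 above that range. The descriptions give all resistant arrays the number 1. The parental 0 h array of that number was lower than all 4 untreated lines in Igkv4-91 (8.76), Igkv5-43 (6.24) and Igkv10-96 (8.51). With the number entered as a block, a fit added after seeing the data, these 3 segments were called higher in the untreated lines (6.32% of genes). Whether number 1 marks the same cultures in parental and resistant cells is not stated.

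Igkv4-55 stood at 7.56, 7.09, 7.93 and 7.45 in untreated R100, R500, R1000 and R4000, and Igkv10-96 at 9.04, 9.42, 9.45 and 9.55. For Igkv10-96 all 4 lines lay within the range of parental 0 h arrays, from 8.51 to 10.45. Igkv9-120 stood at 6.35, 6.87, 6.92 and 7.36, and at 6.43, 6.71 and 6.32 in treated R500, R1000 and R4000. It lay among the 1000 probe sets of highest covariance with resistance order (rank 762 of 34760), and Igkv5-43 and Igkv8-30 among the 1000 of lowest covariance (ranks 33963 and 34520). These ranks describe 1 array per line, and in the resistant lines these 3 segments were below the limit of 7.49 on every untreated array.

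No segment was called between treated and untreated resistant lines (limma, 0.0301% of genes called). At an unadjusted p under 0.05 there were 0 segments and 2.9% of genes. For the difference between this response and that of parental cells, 0 segments and 0% of genes were called (0 segments and 7.83% of genes at an unadjusted p under 0.05). Treated R500, R1000 and R4000 held Igkv4-91 at 10.88, 10.55 and 9.04, against 10.32, 10.52 and 9.90 untreated. Igkv8-30, below the limit throughout, stood at 5.56, 4.95 and 6.48 against 5.24, 4.87 and 5.01 (difference 0.62 ± 0.29, SE, limma adjusted p = 1), R4000 being the line that set them apart.

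No segment on any of the 7 resistant arrays differed from the parental 0 h mean by at least 1 and lay outside the range of all 23 parental arrays, which 0.286% of genes did in R100, 0.0451% in untreated and 0.221% in treated R500, 0.115% and 0.366% in R1000, and 0.0251% and 0.346% in R4000. Outside the parental range by less were Igkv8-30 in untreated R1000 (4.87), treated R1000 (4.95), untreated R4000 (5.01, equal to rounding to the lowest parental array) and treated R4000 (6.48), Igkv6-20 in treated R1000 (5.78) and Igkv9-120 in treated R4000 (6.32). The parental range takes in all description numbers, from 6.115 to 10.04 in Igkv5-43 and from 8.66 to 12.44 in Igkv4-91. This made the rule hard to meet for these segments. Within the range, Igkv5-43 differed by -1.245 in untreated R500, -1.218 in treated R500, -1.066 in untreated R1000 and -1.282 in treated R4000. Igkv4-91 differed by -1.226 in treated R4000. Taken over the 8 segments, the median absolute difference from the parental 0 h mean was 0.14 to 0.51 on the resistant arrays. On the parental arrays it was 0.31 to 1.04, and over all genes it was 0.09 to 0.27 on the 30 arrays. These distances share the 0 h arrays as their reference, whose mean averages the 5 numbers. Each 0 h array was instead set against the mean of the remaining 0 h arrays, so its distance is not on quite the same footing.

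Among the 16 probe sets annotated to several segments, some did pass this rule of size, each of them downward, beside 0.0784% to 0.353% of the 22961 annotated probe sets on the same arrays. They were 4 probe sets in R100, 3 in untreated R500, 2 in treated R500, 3 each in untreated and treated R1000, 1 in untreated R4000 and 3 in treated R4000. The lambda probe set 10438415, annotated to 3 segments, lay between 10.01 and 11.39 on the 23 parental arrays and at 8.01, 9.04, 8.91 and 9.91 in untreated R100, R500, R1000 and R4000. In treated R500, R1000 and R4000 it stood at 8.57, 8.22 and 8.10. All 7 resistant arrays were thus below every parental array, and in untreated R4000 the difference from the 0 h mean was under 1. The kappa probe set 10538921 stood at 7.12, 7.74, 7.50 and 7.79 in the 4 untreated lines and at 7.98, 7.54 and 7.76 in the treated ones, where the lowest parental array, of number 1, was at 7.85. The other probe sets past the rule were 10538880, below the limit of 7.49 on all arrays, and, in R100, the lambda probe set 10438405 at 9.84 (lowest parental array 11.22). Over the 4 untreated lines against parental 0 h none of the 16 was called. Of all annotated probe sets 0.0261% were, a share so low that a count of 0 says little. Probe set 10438415 differed by -1.72 (limma adjusted p = 0.161) and 10538921 by -2.58 (adjusted p = 0.403).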

How the data were processed

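The authors summarised the arrays by robust multi-array averaging (RMA, affy, with the mm9 build, per the submitters' processing notes), and the deposited values are log2 expression, background-corrected and normalized to a common distribution. Precision is limited by how many arrays there are. Probe sets were named through the platform annotation: of 34760, 21640 had 1 symbol, 1321 several and 11799 none. Each gene was represented by its probe set of highest mean, which left 19937 genes. Comparisons were fitted with limma 3.58.1 (R 4.3.3; lmFit, eBayes) with Benjamini-Hochberg adjustment over these genes at 0.05: hours over the 23 parental arrays; description numbers with the hour as a factor; the 4 untreated resistant lines against 5 parental 0 h arrays; and treatment over 16 arrays, the lines entering as terms. The fits were tested on simulated data with independent noise on each array. That noise lacks the differences between numbers seen in the real arrays, so the test does not cover their effect on the fits. Numbers are those of the descriptions, since titles number the 6 h and 12 h arrays differently. RefSeq positions are of GRCm38.p6, not mm9, so no coordinates are given. The segments named were those called, those above the limit of 7.49 and those of largest SD, and from the gene lists those of smallest p. The segments, lists and pairwise comparisons of numbers were chosen with earlier results of these data known.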

Additional observations from a re-analysis of the deposited data

Results flagged for a closer look

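In 6 of 48 groups (8 segments at each of 5 times, and in the 4 untreated resistant lines), the lowest array of a segment lay apart from the rest by Dixon's criterion, and each time it was a parental array of number 2. Chance flags about 1 in 20 groups, and the segments share arrays. Igkv4-91 stood at 8.66 at 6 h (next lowest array 11.13) and at 9.06 at 12 h (next 11.75). Igkv4-55 stood at 6.84 at 6 h (next 8.34) and at 7.22 at 12 h (next 8.80). Igkv5-43 stood at 6.86 at 12 h (next 9.75), and Igkv6-20 at 5.98 at 48 h (next 6.23). Number 1 has no array at 6 h and 12 h, so number 2 was the lone low array there.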

How the results depend on the processing

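The labels do not say that a number pairs arrays. Deviations from the hour means correlated by 0.065 to 0.773 (median 0.399) over 43 same-number pairs, above 0.1 in 41. Of 23 arrays, 21 correlated best with their own number, a hint of pairing from the data. Entering this number as a replicate block, 0, 4, 5 and 3 segments were called, all higher, at 6, 12, 24 and 48 h (0.311%, 3.55%, 23.6% and 3.28% of genes). At 24 h these were Igkv10-96, Igkv4-91, Igkv5-43, Igkv4-55 and Igkv19-93. With the number as a random block, 0, 0, 1 and 0 segments were called at 6, 12, 24 and 48 h (0.251%, 2.24%, 22.1% and 1.9% of genes). The resistant arrays all carry number 1, and with this block, added after seeing the data, 3 segments were called higher in untreated resistant lines (6.32% of genes): Igkv4-91 by 1.35, Igkv10-96 by 0.82 and Igkv5-43 by 0.77. Without the block these 3 differences were -0.26, -0.24 and -0.90, none called, so their direction turned, as did that of Igkv4-55.

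A filter on genes below the limit of 7.49 left 5 segments, and 5 were then called by number (51.4% of genes), at number 2 against the others (35.5%), and between number 2 and numbers 3, 4 and 5 (30%, 32.5% and 34%). The segment called between numbers 3 and 5 in the Results had a mean below the limit, and the filter removed it. The count of 0 for that pair (3.38% of genes) therefore does not test that call. The segment called between numbers 4 and 5 was kept by the filter and was no longer called, leaving 0 for that pair (0.58% of genes). Array weights gave 2, 2 and 3 calls between numbers 3 and 4, 3 and 5, and 4 and 5 (3.19%, 9.46% and 9.58% of genes), and the fibroblast covariate 3 between 4 and 5 (8.61%). At 0, 24 and 48 h alone, 5 segments were called by number (7.18% of genes). Of the probe sets with several symbols, 13 of 16 were called, a count added later. With 500 probe sets at each end of the resistance covariance, 1 segment remained in place of 3. Leaving out 1 array at a time gave 8 calls by number throughout, 4 to 5 at number 1 and 7 to 8 at number 2, 1 to 5 between numbers 1 and 2, 0 to 1 between numbers 3 and 5 and 0 to 3 between 4 and 5; the lowest counts came without the 24 h array of number 1 (number 1) and without the 24 h array of number 2 (number 2, and numbers 1 and 2); it gave 0 at each hour and in the resistant lines. No segment that was called in the comparisons of the Results turned its direction under any alternative. The 3 segments called in the resistant lines only with the block did turn.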
